A study of Homo sapiens with 9 samples.

Results

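The 10 zinc importers of the SLC39 (ZIP) family that were named alongside ZIP7 (SLC39A7) are the subject here, namely SLC39A1, SLC39A3, SLC39A4, SLC39A6, SLC39A8, SLC39A9, SLC39A10, SLC39A11, SLC39A13 and SLC39A14. They were chosen as the family genes expressed in these libraries other than the target, a rule that uses no difference between groups. Earlier results of these data were known when they were chosen. They are 10 of 58395 gene identifiers counted and of 14 SLC39 genes in the annotation. RNA was sequenced from MDA-MB-231, an established triple-negative breast cancer line with mesenchymal features, 96 h after siRNA transfection. The siRNA was non-targeting (siNC) or either of a pair against ZIP7 from different suppliers (siZIP7_1 and siZIP7_2). Each siRNA had 3 libraries, 9 in all, and no other treatment or engineered allele is named. The question was how the other importers stood, in level and in direction, once ZIP7 transcripts had been lowered, as seen in bulk RNA alone.

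ZIP proteins move zinc into the cytosol, either from outside the cell or out of organelles, and the SLC30 (ZnT) proteins move it the other way. ZIP7 sits in the membranes of the ER and Golgi and releases zinc from the secretory pathway. Cells commonly adjust ZIP proteins through endocytosis and protein degradation as well as through transcript level, so a transcript level is not a measure of transport.

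The target itself checked the labels. SLC39A7 was at 321, 343 and 322 CPM (counts per 1e+06 reads, with TMM-scaled library sizes) in the siNC libraries, at 35.4, 32.9 and 38.6 CPM with siZIP7_1 and at 20.5, 19.5 and 17.6 CPM with siZIP7_2. The log2 fold changes were -3.20 and -4.10. Libraries held between 24153785 and 30454419 reads on genes, and 3 counts, the floor used for a detected gene, came to 0.0985 to 0.124 CPM, for counting error only. The line's present markers VIM, CD44, EGFR and KRT18 were at 247 CPM or more in siNC, whereas PGR had no reads, ESR1 was at 0.0887 CPM and CDH1 at 0.466 CPM. Of the other markers taken as low in this line, EPCAM was at 6.57 CPM and ERBB2 at 74.2 CPM in siNC, both above the floor. The share of reads outside annotated genes was 7.43% to 8.28% in siNC, 7.80% to 9.62% with siZIP7_1 and 9.99% to 11.5% with siZIP7_2, and its part in the results was not tested.

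All 10 members passed the low-count filter and were among the 16761 genes tested, which follows from their choice as expressed genes. Levels of different genes were compared only per length, as CPM per kb of exonic length. In siNC the order ran from SLC39A1 at 72.9 ± 2.26 CPM per kb (SD, n = 3) to SLC39A11 at 3.88 ± 0.079 CPM per kb (SD, n = 3), while SLC39A7 stood above them at 115.5 ± 4.41 CPM per kb (SD, n = 3). SLC39A1, a surface importer found in most cells, was above 96.8% of tested genes by this measure, and SLC39A11 above 51.7%. Between these came SLC39A14 at 30.6, SLC39A13 at 28.98, SLC39A6 at 25.2, SLC39A9 at 18.6, SLC39A8 at 11.8, SLC39A3 at 5.98, SLC39A10 at 5.41 and SLC39A4 at 4.05 CPM per kb. The library ranges of SLC39A14 and SLC39A13 overlapped, as did those of SLC39A3 and SLC39A10, so these neighbours were not separated by their spread. The other neighbours had ranges apart. Divided by the median length of coding transcripts in place of all exonic bases, 1 of 10 members held its place, so the order depends on the length chosen. That median was 578 bases for SLC39A14, 581.5 for SLC39A11, 593 for SLC39A10 and 856 for SLC39A13. Their longest transcripts had 4641, 2752, 5432 and 3553 bases, whereas for SLC39A1 the median was 2149 and the longest 2723. Every level, sum or share per median coding transcript length rests on these short lengths.

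The order differed between the groups. With siZIP7_1, SLC39A13 at 41.2 CPM per kb and SLC39A6 at 24.3 CPM per kb followed SLC39A1, while SLC39A14 stood at 10.1 CPM per kb, below SLC39A8 at 12.1 CPM per kb. With siZIP7_2, SLC39A14 stood next to SLC39A1 at 41.4 CPM per kb, and the ranges of SLC39A6 at 32.6 and SLC39A13 at 31.7 CPM per kb overlapped, as did those of SLC39A11 at 4.14 and SLC39A4 at 3.78 CPM per kb. Per exonic length SLC39A1 stood first among the members in each group, at 65.8 CPM per kb with siZIP7_1 and 80.6 CPM per kb with siZIP7_2. Per median coding transcript length SLC39A14 stood first in siNC at 367 CPM per kb and with siZIP7_2 at 497 CPM per kb, and SLC39A13 with siZIP7_1 at 221 CPM per kb. SLC39A7 fell to the range of SLC39A8 with siZIP7_1, at 12.5 CPM per kb, and to that of SLC39A3 with siZIP7_2, at 6.74 CPM per kb. The remaining family genes did not pass the low-count filter. SLC39A2 had 0, 1 and 3 reads summed over the siNC, siZIP7_1 and siZIP7_2 libraries, SLC39A5 had 12, 3 and 2, and SLC39A12 had 3, 3 and 9.

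**Figure D1:**
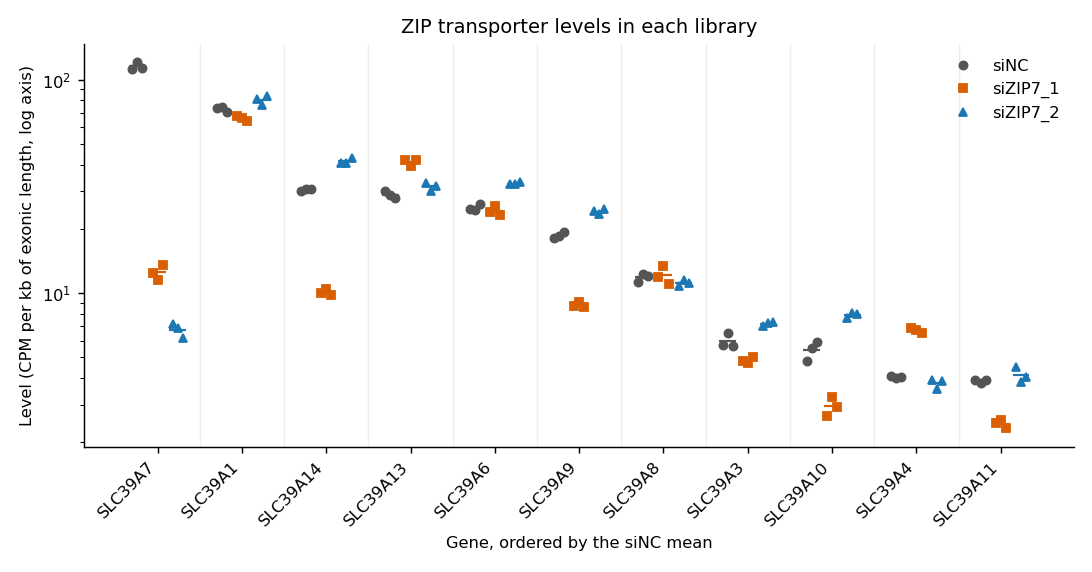
Level of each ZIP gene in every library (points) and its group mean (bars), in CPM per kb of exonic length on a log axis, with genes ordered by the siNC mean. SLC39A7 leads in siNC and drops among the members with each siRNA against it. The siZIP7_1 points lie below the other groups for SLC39A14, SLC39A9, SLC39A10, SLC39A11, SLC39A3 and SLC39A1 but above them for SLC39A4 and SLC39A13.

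The siRNAs against ZIP7 were followed by different changes in the other importers. With siZIP7_1, 2 of 10 members were higher than in siNC, 6 were lower and 2 did not pass the test, at an adjusted p-value under 0.05. The test was the quasi-likelihood F test of edgeR, and p-values were adjusted by Benjamini and Hochberg's method over all genes tested. The background was wide, with 70.7% of tested genes called in this comparison, 34.8% higher and 35.9% lower. With siZIP7_2, 7 members were higher, 0 were lower and 3 did not pass, against 77.8% of tested genes called, 38.5% higher and 39.3% lower. At an unadjusted p under 0.05 the count of lower members there was also 0 by edgeR, and DESeq2 gave 0 as well. The median log2 fold change of the members was -0.22 with siZIP7_1 and 0.21 with siZIP7_2, where the medians over all tested genes were -0.01 and -0.00. The median size, regardless of sign, was 0.59 with siZIP7_1, against 0.48 over all tested genes, and 0.21 with siZIP7_2, against 0.58. These comparisons share the siNC libraries, so the values stand side by side. SLC39A1, SLC39A3, SLC39A9, SLC39A10 and SLC39A14 were called in opposite directions with the siRNAs and between the siZIP7 groups, as were 18.7% of tested genes. The paper reports transfection in triplicate and does not say whether these were separate experiments. Nothing in the labels says that the libraries of a group came from separate cultures, so the p-values measure only the spread between these samples. In bulk RNA, a change in the make-up of the culture and a change of RNA per cell cannot be told apart.

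**Figure D2:**
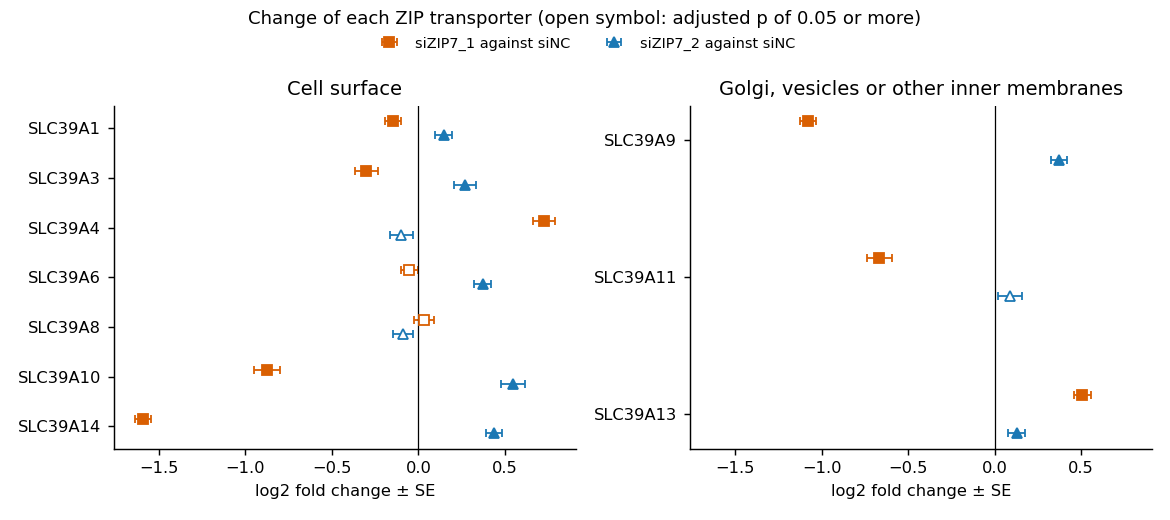
The log2 fold change of each member against siNC, with its standard error (SE) as a bar, for siZIP7_1 (squares) and siZIP7_2 (triangles), split by the main site of the protein. SLC39A14 at -1.59 and SLC39A9 at -1.08 lie farthest from 0, and open symbols mark values that did not pass the test.

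Among the importers of the cell surface, SLC39A14 (ZIP14, ENSG00000104635, plus strand, chr8:22367249-22434129 of GRCh38) showed the largest change of any member, with siZIP7_1. It carries zinc, non-transferrin iron and manganese. Its level was 209, 213 and 214 CPM in the siNC libraries, 69.6, 73.0 and 68.4 CPM with siZIP7_1 and 284, 281 and 297 CPM with siZIP7_2. Every siZIP7_1 library lay below every siNC library and every siZIP7_2 library above. Relative to siNC, siZIP7_1 left 33.1% of its level, a log2 fold change of -1.59 (edgeR, adjusted p = 3.98e-22, SE 0.047), and with siZIP7_2 it was higher by 0.44 on the log2 scale (edgeR, adjusted p = 5.77e-10, SE 0.045). By size, the first lay above 90.5% of tested genes in its comparison and the second above 39.0%. No other counted gene overlaps its exons.

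SLC39A10 (ZIP10, ENSG00000196950, plus strand, chr2:195575977-195737702), a surface zinc importer that can pair with ZIP6, had the same order of groups. It was at 33.2, 38.5 and 40.7 CPM in siNC, at 18.4, 22.5 and 20.4 CPM with siZIP7_1 and at 53.1, 56.1 and 55.0 CPM with siZIP7_2. No library of a group lay within the range of another group. Measured against siNC it fell with siZIP7_1, at a log2 fold change of -0.88 (edgeR, adjusted p = 1.14e-11, SE 0.073) and rose with siZIP7_2, at 0.55 (edgeR, adjusted p = 2.56e-08, SE 0.068).

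SLC39A6 (ZIP6 or LIV-1, ENSG00000141424, minus strand, chr18:36108532-36129385), the partner of ZIP10 and known as an estrogen-responsive gene in breast cancer, rose with siZIP7_2. Its libraries read 91.2, 90.6 and 96.3 CPM in siNC, 88.5, 94.5 and 85.3 CPM with siZIP7_1 and 119.1, 119.0 and 122 CPM with siZIP7_2. The siZIP7_1 and siNC ranges overlapped, with a log2 fold change of -0.05 (edgeR, adjusted p = 0.341, SE 0.049). All siZIP7_2 libraries were above both other groups, at a log2 fold change of 0.37 from siNC (edgeR, adjusted p = 6.67e-08, SE 0.049).

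SLC39A4 (ZIP4, ENSG00000147804, minus strand, chr8:144409742-144416895), the importer of dietary zinc that is mutated in acrodermatitis enteropathica, rose with siZIP7_1. It was at 20.6, 20.2 and 20.3 CPM in siNC, at 34.6, 34.0 and 32.8 CPM with siZIP7_1 and at 19.7, 17.9 and 19.5 CPM with siZIP7_2. That rise was 1.66-fold, or 0.73 as a log2 fold change (edgeR, adjusted p = 2.05e-11, SE 0.063). For siZIP7_2 the value was -0.10 (edgeR, adjusted p = 0.173, SE 0.067), which did not pass although the ranges did not overlap, and it turned to 0.0067 with upper-quartile normalization. Of its exonic length, 3.58% is shared with AC233992.3 on the opposite strand.

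SLC39A8 (ZIP8, ENSG00000138821, minus strand, chr4:102251041-102431258), a carrier of zinc, manganese and cadmium at the surface and in lysosomes, was the member that passed the test in no comparison. It was at 73.3, 79.5 and 77.6 CPM in siNC, at 76.9, 86.4 and 71.9 CPM with siZIP7_1 and at 69.6, 74.4 and 72.3 CPM with siZIP7_2. The ranges overlapped in each pair of groups. The log2 fold changes were 0.03 (edgeR, adjusted p = 0.645, SE 0.057) and -0.09 (edgeR, adjusted p = 0.161, SE 0.058), and the second turned to 0.018 with upper-quartile normalization. Without a low-count filter the second was -0.14 and passed. Of its exonic length, 3.04% is shared with AC098487.1 on the same strand.

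SLC39A1 and SLC39A3 are the ubiquitous surface importers of the ZIP II subfamily, and both differed modestly. SLC39A1 (ZIP1, ENSG00000143570, minus strand, chr1:153959099-153968184) was at 249.6, 253 and 238 CPM in siNC, at 228, 224 and 216 CPM with siZIP7_1 and at 276, 258 and 285 CPM with siZIP7_2. The difference from siNC on the log2 scale was -0.15 for siZIP7_1 (edgeR, adjusted p = 0.00686, SE 0.047) and 0.15 for siZIP7_2 (edgeR, adjusted p = 0.00679, SE 0.047), sizes above those of 17.5% and 13.9% of tested genes. The second did not pass without a low-count filter, at 0.09 (edgeR, adjusted p = 0.118). SLC39A3 (ZIP3, ENSG00000141873, minus strand, chr19:2732204-2740152) was at 26.0, 29.8 and 25.9 CPM in siNC, at 21.9, 21.5 and 22.7 CPM with siZIP7_1 and at 31.8, 33.1 and 33.2 CPM with siZIP7_2. Against siNC this made a log2 difference of -0.30 for siZIP7_1 (edgeR, adjusted p = 0.000184, SE 0.066) and 0.27 for siZIP7_2 (edgeR, adjusted p = 0.000422, SE 0.064). For both genes, the siZIP7_1 libraries lay below and the siZIP7_2 libraries above all siNC libraries. Of the exonic length of SLC39A1, 8.26% overlaps CREB3L4 on the opposite strand, and 9.58% of that of SLC39A3 overlaps AC006538.2 on the same strand, which had no reads in any library.

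Of the 3 importers of inner membranes, SLC39A9 and SLC39A11 fell with siZIP7_1 and SLC39A13 rose. SLC39A9 (ZIP9, ENSG00000029364, plus strand, chr14:69398015-69462388), a Golgi and surface protein also described as a membrane androgen receptor, was at 129, 132 and 137 CPM in siNC. It was at 62.4, 64.6 and 61.7 CPM with siZIP7_1 and at 173, 167 and 176 CPM with siZIP7_2. The groups did not overlap, and siZIP7_1 left 47.4% of the siNC level. Its change was -1.08 in log2 units for siZIP7_1 (edgeR, adjusted p = 4.38e-18, SE 0.048) and 0.37 for siZIP7_2 (edgeR, adjusted p = 2.01e-08, SE 0.046). ERH, on the opposite strand, overlaps 5.23% of its exonic length.

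SLC39A11 (ZIP11, ENSG00000133195, minus strand, chr17:72645949-73092712), the single human member of the GufA subfamily and found in the Golgi and nucleus, was at 21.8, 21.1 and 22.0 CPM in siNC. It was at 13.8, 14.2 and 13.0 CPM with siZIP7_1 and at 25.1, 21.5 and 22.7 CPM with siZIP7_2. The siZIP7_1 libraries lay below all others, while siZIP7_2 and siNC overlapped. In log2 units its change was -0.67 for siZIP7_1 (edgeR, adjusted p = 3.41e-09, SE 0.074) and 0.09 for siZIP7_2 (edgeR, adjusted p = 0.239, SE 0.070). The second passed with upper-quartile normalization, at 0.20, and with at least 10 counts required in every library, at 0.17.

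SLC39A13 (ZIP13, ENSG00000165915, plus strand, chr11:47407132-47416501) releases zinc from the early secretory pathway and is mutated in a form of Ehlers-Danlos syndrome. It was at 138.5, 132 and 128 CPM in siNC, at 194, 181 and 192 CPM with siZIP7_1 and at 151, 138.6 and 146 CPM with siZIP7_2. Both siZIP7 groups lay above siNC in every library, the second by less than 1 CPM between the nearest libraries. The rise over siNC was 0.51 in log2 units for siZIP7_1 (edgeR, adjusted p = 1.64e-10, SE 0.048) and 0.13 for siZIP7_2 (edgeR, adjusted p = 0.0186, SE 0.049). The second call was lost when siNC replicate 2, siNC replicate 3 or siZIP7_2 replicate 1 was left out, with adjusted p = 0.0518, 0.0765 and 0.0657 by edgeR, and without a low-count filter, with adjusted p = 0.254.

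When the siRNAs against ZIP7 were compared directly, in the fit whose spread, scaling and filter include the siNC libraries, 7 members were higher with siZIP7_2 than with siZIP7_1, 2 were lower and 1 did not pass, against 78.7% of tested genes called, 38.1% higher and 40.6% lower. The median log2 difference of the members was 0.50, against -0.02 over all tested genes. SLC39A14 differed most, at a log2 difference of 2.03 (edgeR, adjusted p = 6.91e-25, SE 0.047), or 4.09-fold. SLC39A9 differed by 1.45 (edgeR, adjusted p = 1.91e-21, SE 0.047) and SLC39A10 by 1.42 (edgeR, adjusted p = 5.46e-17, SE 0.071). These 3 also passed a test against a 1.8-fold change (glmTreat in edgeR), as did 15.2% of tested genes in that direction. SLC39A11 at 0.76, SLC39A3 at 0.57, SLC39A6 at 0.43 and SLC39A1 at 0.29 were higher with siZIP7_2 too. SLC39A4 at -0.83 and SLC39A13 at -0.38 were lower. SLC39A8 was at -0.12 (edgeR, adjusted p = 0.0582, SE 0.057), and passed at -0.19 when siZIP7_1 replicate 3 was left out and at -0.13 without siNC replicate 1.

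Against the 1.8-fold change, SLC39A14 and SLC39A9 were the members past the test for siZIP7_1 against siNC, both lower, where 8.32% of tested genes passed as lower. The count of members past it as higher there was 0, against 8.60% of tested genes, and with siZIP7_2 it was 0 in either direction, against 24.7% of tested genes. Between the siZIP7 groups it was 0 as lower, against 13.0% of tested genes. Each of these was 0 at an unadjusted p under 0.05 also. The ranges of the libraries did not overlap for 8 of 10 members with siZIP7_1 against siNC (72.1% of tested genes), for 8 with siZIP7_2 against siNC (78.7%) and for 9 between the siZIP7 groups (79.7%).

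Per compartment, levels were summed as CPM per kb, a sum of transcript levels and not of transport. The 7 surface members summed to 155.9 ± 2.12 CPM per kb (SD, n = 3) in siNC, 127 ± 4.04 CPM per kb (SD, n = 3) with siZIP7_1 and 185 ± 5.39 CPM per kb (SD, n = 3) with siZIP7_2, with no overlap between groups. The log2 ratios to siNC were -0.30 and 0.24, and became -0.85 and 0.37 when levels were set per median coding transcript length. Without SLC39A14 the surface sums were 125, 117 and 143 CPM per kb, and without SLC39A1 they were 83.0, 61.0 and 104.0 CPM per kb. The order of the groups was the same in each of these sums. SLC39A14 alone was 14.7% of the summed member level in siNC, 5.65% with siZIP7_1 and 16.9% with siZIP7_2. Per median coding transcript length, which was 578 bases for SLC39A14, these shares were 41.7%, 19.5% and 45.3%.

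The inner-membrane members summed to 51.5 ± 0.66 CPM per kb (SD, n = 3) in siNC, 52.5 ± 1.23 CPM per kb (SD, n = 3) with siZIP7_1 and 59.9 ± 2.18 CPM per kb (SD, n = 3) with siZIP7_2. The siNC and siZIP7_1 ranges overlapped. Without SLC39A13 the sums were 22.5, 11.3 and 28.2 CPM per kb, so that SLC39A9 and SLC39A11 together were lowest with siZIP7_1. SLC39A9, also a surface protein, was counted here, and no sum without it was taken. In siNC, siZIP7_1 and siZIP7_2, SLC39A13 was at 28.98, 41.2 and 31.7 CPM per kb and SLC39A11 at 3.88, 2.44 and 4.14 CPM per kb. The order of the groups in this sum therefore depends on where SLC39A9 is placed. All members together came to 207 CPM per kb in siNC, 179 with siZIP7_1 and 245 with siZIP7_2. With SLC39A7 included the sums were 323, 192 and 251.3 CPM per kb, and the share of SLC39A7 went from 35.8% to 6.54% and 2.69%. Per median coding transcript length the sums were 1032, 639 and 1105 CPM per kb, with siZIP7_2 above siNC rather than below it, and the shares of SLC39A7 were 14.8%, 2.59% and 0.807%.

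**Figure D3:**
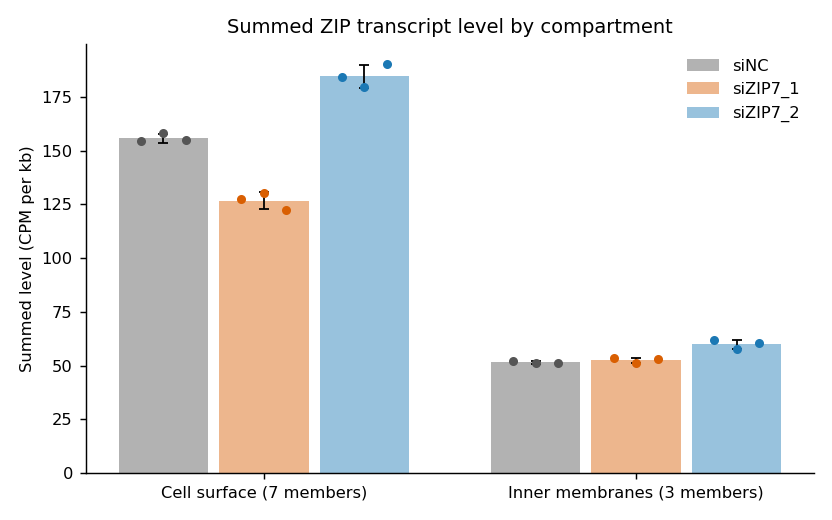
Summed level of the 7 cell surface members and the 3 inner membrane members, in CPM per kb of exonic length. Bars are means of 3 libraries with SD, and points are libraries. The surface sum is lowest with siZIP7_1 at 127 and highest with siZIP7_2 at 185, and the inner membrane sum is highest with siZIP7_2 at 59.9. SLC39A9, a Golgi and surface protein, is counted in the inner membrane sum, and the order there depends on it.

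Patterns over the 9 libraries were compared by the root mean square difference of log2(CPM + 1) after subtraction of the siNC mean, a description with no test among 13736 candidate genes. The nearest genes to SLC39A14 were TMEM189 (0.059), PEX5 (0.060) and TENT5C (0.070). For SLC39A9 they were TMED10 (0.030), IFNGR2 (0.057) and SARS (0.062). Among the members themselves, SLC39A9 and SLC39A10 were nearest to each other at 0.180, as were SLC39A4 and SLC39A13 at 0.176 and SLC39A1 and SLC39A3 at 0.125. The nearest member to SLC39A14 was SLC39A9, at 0.300. It is the nearest of 9 members, whereas the genes named above are the nearest of 13736, so these distances are not compared.

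Promoter windows, from 250 bases before to 50 after the start of transcription, were held for 8 of the 10 members in RefSeq (GRCh38.p14), in 14 windows. Both strands were searched for the core of the metal response element bound by MTF1, written TGCGCNC or TGCACNC, which differ at 1 base and so cannot share a site. TGCGCNC was found in SLC39A1, SLC39A3, SLC39A6, SLC39A8 and SLC39A13, 5 of 8 members and 5 of 14 windows, against 23% of 27305 genes and 20% of 35116 windows. TGCACNC was found in SLC39A10 alone, against 14.4% of genes. The ATF4 composite TGATGNAAN was found in SLC39A11 alone (4.45% of genes), TGACGT, a core shared by ATF6, XBP1 and CREB-type factors, in SLC39A1 and SLC39A13 (9.64% of genes), and the full ER stress element of ATF6 in none (0.0916% of genes). Such a match is a string of letters and not a measured binding site. Of the 5 members with TGCGCNC, SLC39A13 rose, SLC39A1 and SLC39A3 fell and SLC39A6 and SLC39A8 did not pass the test with siZIP7_1, whereas with siZIP7_2 SLC39A1, SLC39A3, SLC39A6 and SLC39A13 were higher and SLC39A8 did not pass.

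The sequences upstream of 3 members with different responses to siZIP7_1 are shown from RefSeq, 5′ to 3′ on the strand of the gene and up to the first annotated exon base, with motif matches in capitals. They are SLC39A13, which rose (chr11:47408340-47408583, plus strand, TGCGCNC and TGACGT in capitals), SLC39A8, which did not pass the test (chr4:102345483-102345732, minus strand, TGCGCNC in capitals), and SLC39A11, which fell (chr17:73092713-73092938, minus strand, no match in this stretch). The first lies in an intron of a longer transcript of its gene in GENCODE release 29, as does the SLC39A8 stretch. That of SLC39A11 ends just before the annotated start of its gene.
SLC39A13: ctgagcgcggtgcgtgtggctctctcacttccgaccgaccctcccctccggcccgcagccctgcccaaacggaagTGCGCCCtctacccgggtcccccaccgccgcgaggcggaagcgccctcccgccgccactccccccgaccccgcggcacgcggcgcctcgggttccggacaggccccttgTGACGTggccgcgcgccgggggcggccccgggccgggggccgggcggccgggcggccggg
SLC39A8: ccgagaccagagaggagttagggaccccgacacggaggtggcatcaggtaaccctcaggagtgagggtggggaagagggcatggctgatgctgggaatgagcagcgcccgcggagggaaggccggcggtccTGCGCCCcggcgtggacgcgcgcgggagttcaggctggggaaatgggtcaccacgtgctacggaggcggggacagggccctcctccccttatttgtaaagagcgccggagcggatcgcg
SLC39A11: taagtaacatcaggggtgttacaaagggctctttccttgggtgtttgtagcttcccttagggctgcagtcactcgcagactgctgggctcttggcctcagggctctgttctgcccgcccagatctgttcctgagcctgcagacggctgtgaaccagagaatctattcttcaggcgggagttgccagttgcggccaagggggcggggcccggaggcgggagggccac
In SLC39A13 the TGCGCNC match lay at bases -175 to -169 and TGACGT at -66 to -61 from the start. In SLC39A8 the match lay at -119 to -113.

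The exporters and the zinc-binding metallothioneins give the other side of zinc handling. Of the 10 SLC30 exporters, 8 were tested, and 5 were higher, 2 lower and 1 not called with siZIP7_1, against 3, 2 and 3 with siZIP7_2. Over all tested genes, 70.7% and 77.8% were called in these comparisons, so nothing particular to the exporters is read from the counts. Their median log2 fold changes were 0.19 and -0.04. SLC30A1 (ZnT1), which removes zinc across the plasma membrane, had log2 fold changes of -0.26 (SE 0.062) and 0.55 (SE 0.061), both past the test. SLC30A6, a Golgi protein of this family, fell with each siRNA, by 0.59 and 1.99 on the log2 scale. SLC30A3 rose with each, by 1.70 and 1.18, from 45 reads in all in siNC. SLC30A9 rose by 0.15 with siZIP7_1 and fell by 0.83 with siZIP7_2. SLC30A10, with 17 reads in all in siNC, rose by 1.69 with siZIP7_2. SLC30A4, with 654 reads in all in siNC, rose by 0.91 with siZIP7_1, as did SLC30A7 by 0.22 and SLC30A5 by 0.16. With siZIP7_2 their values were -0.18, -0.07 and -0.02, and none passed.

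Of 11 metallothionein genes, 4 were tested, and 2 were higher and 2 lower with siZIP7_1, while 2 were higher and 2 not called with siZIP7_2. The shares called over all tested genes were 70.7% and 77.8%, and nothing particular to metallothioneins is read from these counts. These genes are near-identical copies, and the counter's summary line for reads with several alignments was 0 in every library. Whether such reads were removed earlier or were counted is not given, so the share of each gene is uncertain. MT2A, the one with the most reads, was at 593, 573 and 555 CPM in siNC, at 501, 458 and 501 CPM with siZIP7_1 and at 1222, 1042 and 1171 CPM with siZIP7_2. Its log2 fold changes were -0.24 and 1.00, both past the test. MT1X rose with each siRNA, by 0.34 and 2.17, and MT1E rose with siZIP7_1, by 1.01. MT1A fell with siZIP7_1, by 0.67 on the log2 scale (SE 0.243), a value that rests on 103 reads in all in siNC and 73 with siZIP7_1.

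Genes of 9 factors known to act on ZIP genes in some cells were all tested. With siZIP7_1, 3 were higher, 4 lower and 2 not called, and with siZIP7_2, 4 were higher, 4 lower and 1 not called. As 70.7% and 77.8% of all tested genes were called there, nothing particular to the factors is read from these counts. IL6, the cytokine that raises ZIP14 in liver, had the largest change. It was at 11.8, 10.3 and 10.8 CPM in siNC, at 2.15, 0.996 and 1.51 CPM with siZIP7_1 and at 117, 98.0 and 103 CPM with siZIP7_2. Its log2 fold changes were -2.83 (SE 0.147) and 3.27 (SE 0.084), with the groups in the same order as those of SLC39A14. Calls in opposite directions with the siRNAs and between the siZIP7 groups, in either order, were made for 18.7% of tested genes. Nothing is read from the shared order, and a link between these genes was not tested. KLF4, a regulator of ZIP4 in the gut, fell with each siRNA, by 0.74 and 0.39 on the log2 scale. SLC39A4 (ZIP4) was at 0.73 and -0.10, of which the second did not pass. MTF1, the cell's zinc sensor, was 0.23 and -0.12, ATF4 was -0.21 and -0.66, ATF6 was 0.24 and -0.41 and NFKB1 was -0.20 and 0.52, all past the test. STAT3 was 0.15 with siZIP7_2 and did not pass with siZIP7_1, and RELA passed with neither. ESR1, the estrogen receptor that acts on ZIP6, had 7, 21 and 41 reads in all in the groups, and its log2 values of 1.38 and 2.43 rest on these.

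**Figure D4:**
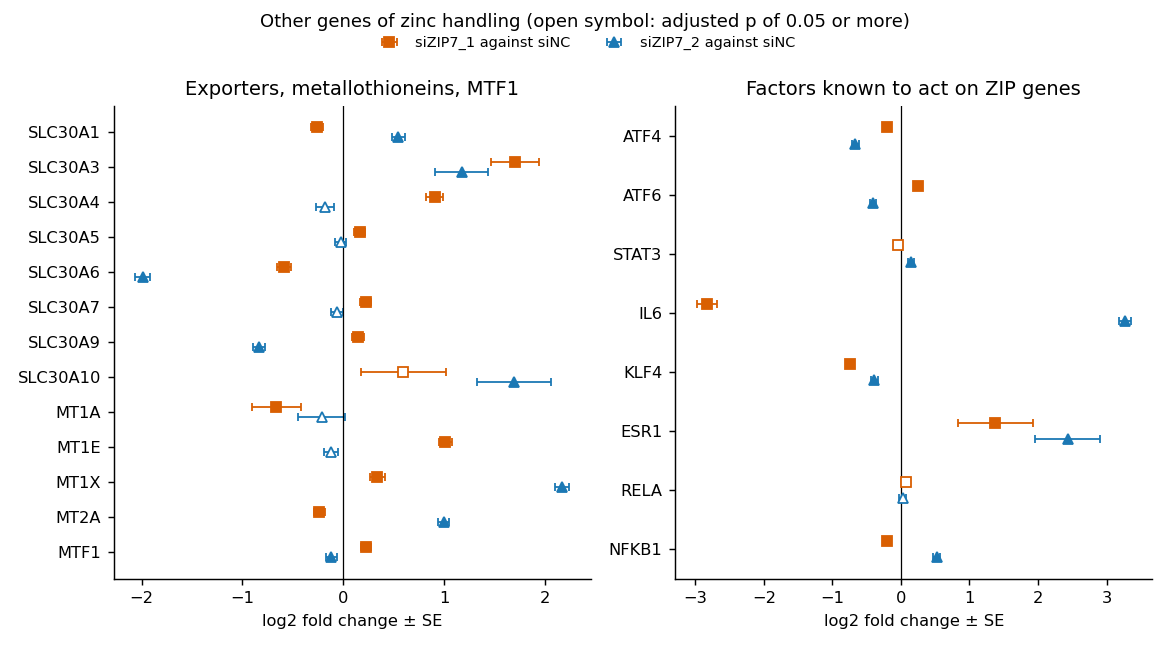
The log2 fold change against siNC, with SE as a bar, of the tested exporters, metallothioneins and MTF1 (left) and of factors known to act on ZIP genes (right), for siZIP7_1 (squares) and siZIP7_2 (triangles). IL6 at -2.83 and 3.27 lies farthest from 0 on the right, and MT1X at 2.17 and SLC30A6 at -1.99 on the left. Open symbols mark values that did not pass the test.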

How the data were processed

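RNA from 9 MDA-MB-231 libraries was sequenced as single reads. For every library the authors deposited a list of Ensembl genes with whole-number read counts, not normalized. The submitters' processing notes name Trim Galore 0.4.1, FastQC 0.11.2, STAR, HTSeq 0.6.1 and DESeq2 1.16.1, while the genome build, annotation and strand setting are not given in the sources used here, so reads from overlapping genes may be split either way. Summary lines of the counter were left out, of which ambiguous reads were 2.66% to 2.91%. Symbols, positions and exonic lengths were taken from GENCODE release 29 (GRCh38), which holds 58275 of the 58395 identifiers.

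Counts were fitted in R 4.3.3 with edgeR 4.0.16 (TMM, low-count filter over the groups, quasi-likelihood test, one fit with 3 groups and 6 residual degrees of freedom), with Benjamini-Hochberg adjustment over all 16761 genes tested and a threshold of 0.05. SE is the log2 fold change divided by the square root of F. Steps were tested on simulated data. All members are named, with the rest of the family, and for other lists the extremes and the genes drawn. Members, compartments and lists were chosen with earlier results of these data known. The named lists held SLC30 exporters, metallothioneins and factors acting on ZIP genes. Alternatives were DESeq2 1.42.0, edgeR with the size factors of DESeq2, no filter, upper-quartile scaling, at least 10 counts in every library, a replicate block, fits to pairs of groups, glmTreat against 1.8-fold, each library left out, and other gene lengths.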

Additional observations from a re-analysis of the deposited data

Results flagged for a closer look

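For 5 members, the changes from siNC passed the test with both siRNAs against ZIP7 but in opposite directions, and the siZIP7 groups differed when tested directly by edgeR. Over all tested genes, 18.7% met the same description. The comparisons share the siNC libraries, so nothing particular to the members is read from this count. The log2 difference of siZIP7_2 from siZIP7_1 was 2.03 for SLC39A14, 1.45 for SLC39A9, 1.42 for SLC39A10, 0.57 for SLC39A3 and 0.29 for SLC39A1. All 3 siZIP7_2 libraries were above all 3 siZIP7_1 libraries for each of them. SLC39A7 also differed between the siZIP7 groups, at 35.6 ± 2.83 and 19.2 ± 1.45 CPM (SD, n = 3), a log2 difference of -0.89. The part of the depth of the knockdown in these differences was not tested.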

How the results depend on the processing

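Over the members' fold changes, 212 of 240 values under other settings and 263 of 270 with 1 library left out kept their direction and their side of the threshold. Tested against a 1.8-fold change, 0 members were higher and 2 lower with siZIP7_1, 0 were higher with siZIP7_2, and 3 were higher and 0 lower between the siZIP7 groups. Without a low-count filter, 1 member (SLC39A8, -0.14) was lower with siZIP7_2, SLC39A1 (0.09, adjusted p = 0.118, edgeR) and SLC39A13 (0.08, adjusted p = 0.254, edgeR) lost their calls there, and SLC39A8 was lower with siZIP7_2 than with siZIP7_1, at -0.17. Upper-quartile normalization shifted the median of all genes by 0.106 for siZIP7_2 against siNC, turned SLC39A4 to 0.0067 and SLC39A8 to 0.018 there, and called SLC39A11 at 0.20, as did at least 10 counts in every library at 0.17. The causes were not tested. SLC39A8 with siZIP7_1 ranged from -0.045 to 0.092 over the libraries left out, and turned negative without siNC replicate 1 (-0.0051) or siZIP7_1 replicate 2 (-0.0451). Its difference between the siZIP7 groups passed without siNC replicate 1 (-0.13) or siZIP7_1 replicate 3 (-0.19). Same-numbered libraries of different groups had a mean correlation of deviations of 0.021 (9 pairs, -0.118 to 0.120) and others -0.010 (18 pairs). Not every library correlated best with its own number, so no pairing by number was seen. These values cannot show whether same-numbered libraries were prepared together. With the replicate number as a block, 2 members were higher and 6 lower with siZIP7_1, 7 and 0 with siZIP7_2, and 7 and 3 between the siZIP7 groups, where SLC39A8 was called at -0.12 (adjusted p = 0.0359, edgeR). The block changed no other member's call.

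Per longest transcript, 8 of 10 members held their place in the siNC order, and the inner membrane log2 ratio of siZIP7_1 to siNC turned from 0.027 to -0.013. Per median coding transcript 1 member held its place. The surface log2 ratios were then -0.85 and 0.37 against siNC and 1.21 between the siZIP7 groups, from -0.30, 0.24 and 0.54, and the inner membrane ratios were 0.15 with siZIP7_1 and 0.021 between the siZIP7 groups. Length without stretches shared with other genes, chosen after seeing the data, kept all 10 in place. The members had at least 379 reads in every library, whereas depth leaves SLC39A2, SLC39A5 and SLC39A12 near the floor.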
